A study of Mus musculus with 4 samples.

Results

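The nuclear genes for subunits of respiratory complexes III, IV and V were taken from the expression table as every row whose symbol starts with Uqcr, with Atp5, or with Cox followed by a number from 4 to 8 and a letter from a to c. This gave 43 rows of 32230: 8 of complex III, 16 of complex IV, and 19 of complex V, of which 2 are pseudogenes. The symbols Cox4i1, Cox4i2, Cyc1, Cycs, Ndufa4 and Atpif1 belong to the same complexes or to cytochrome c but do not match, and their values are given apart. One matching gene, Cox7a2l, is known as a factor that joins complexes III and IV and not as an ordinary subunit.

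The cells were 4F2A mouse embryonic fibroblasts, taken from male homozygous embryos at E13.5, in which doxycycline switches on a transgene for Oct4, Sox2, Klf4 and Myc, the 4 factors used to reprogram cells. All libraries came from cells kept with doxycycline at 2 µg/mL for 48 h in serum replacement medium with LIF, a cytokine that sustains pluripotent cells. On day 0 the cells received DMSO, the vehicle, or CX-5461, an inhibitor of RNA polymerase I, for 1 h, and polyadenylated RNA was taken on day 2. There were 2 groups, DMSO and CX-5461, of 2 libraries each, which carry the numbers 2 and 3. The labels call them parallel replicates without naming separate cultures, and a p-value here covers no more than the spread among the 4 libraries, possibly a technical one. The comparison asked how a brief CX-5461 exposure at the start of reprogramming changed the transcriptome on day 2, here for the genes of 3 respiratory complexes.

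Complex III (cytochrome bc1) passes electrons from ubiquinol to cytochrome c, complex IV (cytochrome c oxidase) passes them on to oxygen, and complex V (ATP synthase) uses the proton gradient that the chain builds to make ATP. Each complex joins subunits of nuclear genes with a few made in the mitochondrion. In complex IV the catalytic core is mitochondrial and the nuclear subunits surround it, several of them as paralogs with a widespread form and a form of muscle or testis. In complex V the catalytic F1 head is made wholly by nuclear genes.

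Values are TPM, transcript levels per gene length scaled to a sum of 1000000 in each library, with SD over n = 2 libraries. A difference is the CX-5461 mean less the DMSO mean of log2(TPM + 1), a scale that makes changes of low genes look smaller. A gene passed when its limma p, adjusted over the 14621 genes that averaged 1 TPM or more, was under 0.05. Of the 43 rows, 37 were tested. The other 6 lay under the limit: Cox7b2, Cox8c, Atp5k-ps4 and Atp5c1-ps were listed at 0 in all libraries, Cox8b had 0.721 TPM in DMSO replicate 3 and 0 elsewhere, and Cox6a2 had 0.286 and 2.03 TPM with DMSO and 0 with CX-5461. Reads recovered from the TPM values came to between 35.4 and 37.7 times 1000000 per library. DMSO replicate 3 stood apart: mitochondrially encoded genes held 15.3% of its TPM and 9.20% to 9.97% of the other libraries, and 34 of the 37 tested genes were lower in it than in DMSO replicate 2, with a median difference of -0.22 against -0.09 over all genes tested. Since bulk RNA was measured, a change of RNA per cell and a change in the mix of cells cannot be told apart. Of 8 fibroblast markers, Col1a1, Col1a2 and Vim stood between 1150.0 and 4321 TPM in every library. The lowest was Pdgfra, at 33.6 and 32.7 TPM with DMSO and at 18.6 and 17.3 TPM with CX-5461. With CX-5461, 5 of the 8 fell, where 8.21% of all genes tested were lower.

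Of the 37 tested genes, 5 rose with CX-5461 and 0 fell, and 32 did not pass. The 5 were Cox6b2, Cox8a, Cox6a1 and Cox5b of complex IV and Atp5mpl of complex V. Over all genes tested 11.6% were higher and 8.21% lower, so 5 of 37 was close to the background. The differences leaned upward more than the calls did: 34 lay above 0 and 3 below, where 57.5% of all genes tested lay above 0, and their median was 0.34 against 0.07 over all genes. Against DMSO replicate 2 alone, the median was 0.14, beside 0.02 over all genes. In 21 of the 37 both CX-5461 libraries were above both DMSO libraries, as they were for 38.2% of all genes tested, and in 0 they were below both (26.3% of all). By complex, 4 of 12 tested genes of complex IV rose, 1 of 17 of complex V and 0 of 8 of complex III. At an unadjusted p under 0.05, 8, 4 and 4 genes of these complexes were higher and 0 lower. The share of all genes at that limit is not given here, so these counts have no background beside them. Whether the complexes differ was not tested.

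**Figure D1:**
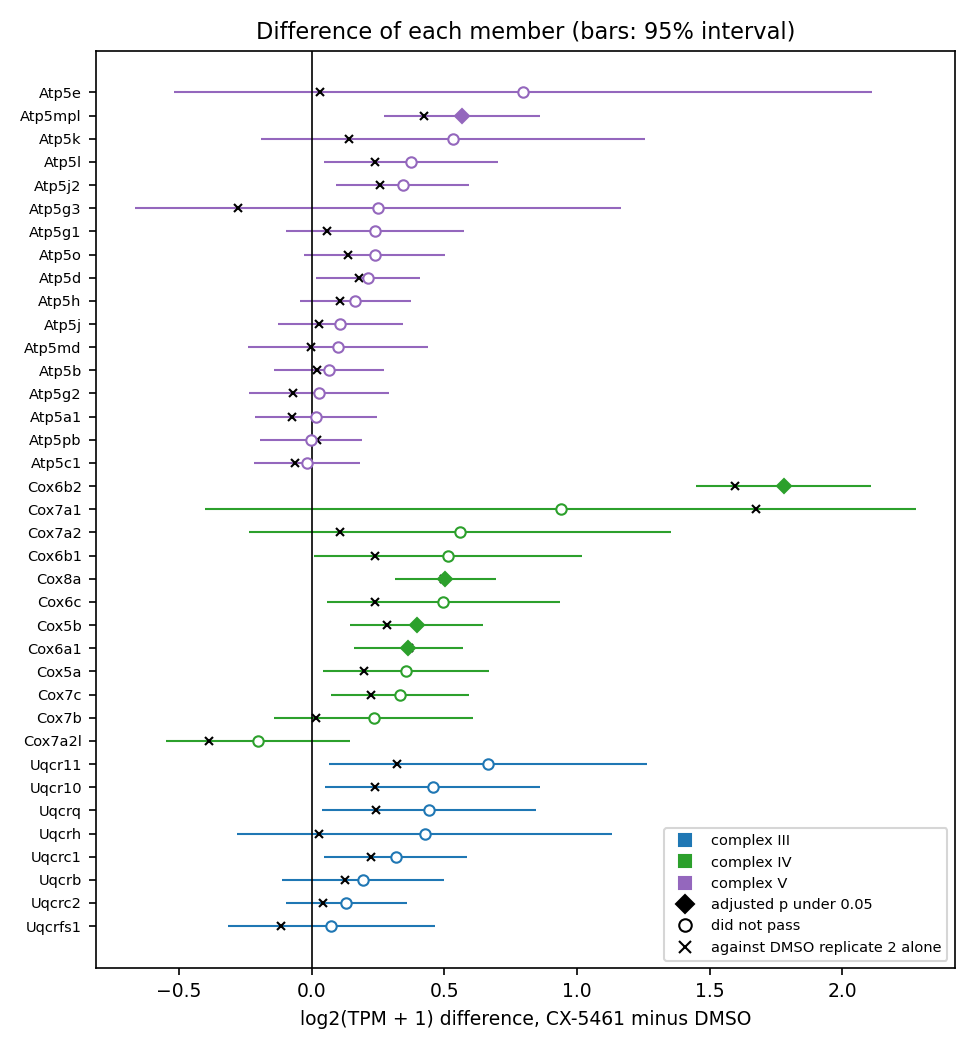
Difference of each of the 37 tested genes in log2(TPM + 1), CX-5461 minus DMSO, grouped by complex, with the 95% interval of the limma fit as bars. Filled diamonds mark the 5 genes that passed, with Cox6b2 farthest to the right at 1.78, and crosses give the difference against DMSO replicate 2 alone, which for Atp5e lies near 0.

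Cox6b2, which encodes the testis form of subunit 6B, a subunit on the side of complex IV that faces cytochrome c, was the member with the largest difference. It lies on chromosome 7 (4751792 to 4753094, minus strand, mm10). Its level was 65.1 and 50.3 TPM in the DMSO libraries and 201 and 197 TPM in the CX-5461 libraries. Both CX-5461 libraries lay well above both DMSO libraries, and the group means went from 57.7 ± 10.5 to 199 ± 3.49 TPM, a 3.45-fold rise (log2 difference 1.78, SE 0.13, limma adjusted p = 0.00131). The recovered reads behind these values were 742 and 645 with DMSO and 2291 and 2195 with CX-5461. Of the 5 calls, only this one held whichever library was left out, with differences from 1.60 to 1.96 and adjusted p from 0.00938 to 0.0242.

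The widespread form, Cox6b1 (chromosome 7, 30616861 to 30626151), was the more abundant of the pair in every library. It stood at 313 and 213 TPM with DMSO and at 398 and 342 TPM with CX-5461, and the groups did not overlap. Its log2 difference of 0.51 (SE 0.20) did not pass (adjusted p = 0.136), and it passed without DMSO replicate 2 (0.79, adjusted p = 0.0229). The share of Cox6b2 in the TPM of both genes was 17.2% and 19.1% with DMSO and 33.6% and 36.5% with CX-5461. Summed over the pair, TPM came to 378 and 263 with DMSO and 599 and 539 with CX-5461. Subunit 6B transcripts were thus higher in both CX-5461 libraries, and the testis form held a larger part of them.

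**Figure D2:**
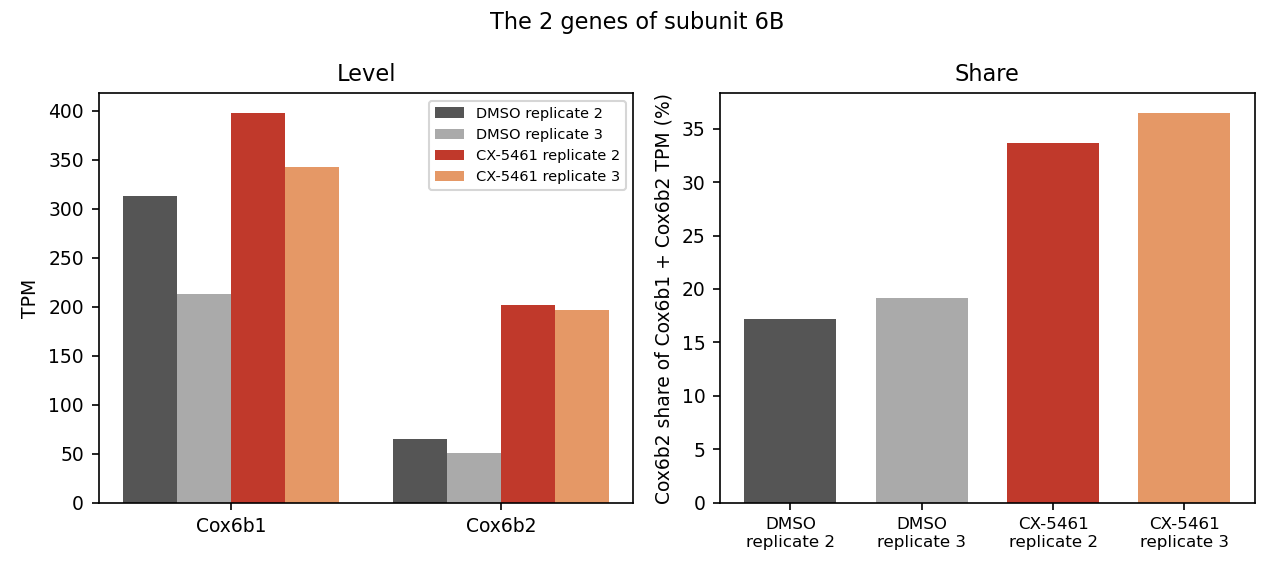
Left, TPM of Cox6b1 and Cox6b2 in each of the 4 libraries as bars; right, the share of Cox6b2 in the sum of both genes, in percent. The CX-5461 libraries sit at 33.6% and 36.5%, above the 17.2% and 19.1% of the DMSO libraries.

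The coding sequences of the 2 genes show how far their reads can be told apart. Both are given from the start to the stop codon from the principal GENCODE M21 transcript, 5′ to 3′, with capitals for bases that are identical in a global alignment of the pair.
Cox6b2: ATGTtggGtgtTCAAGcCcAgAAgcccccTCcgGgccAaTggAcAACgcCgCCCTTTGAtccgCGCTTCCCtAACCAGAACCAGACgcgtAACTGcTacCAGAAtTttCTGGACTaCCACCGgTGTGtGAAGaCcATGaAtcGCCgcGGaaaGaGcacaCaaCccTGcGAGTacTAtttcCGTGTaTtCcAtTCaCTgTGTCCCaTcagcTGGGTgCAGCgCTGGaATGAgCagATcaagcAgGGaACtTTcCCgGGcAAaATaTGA
Cox6b1: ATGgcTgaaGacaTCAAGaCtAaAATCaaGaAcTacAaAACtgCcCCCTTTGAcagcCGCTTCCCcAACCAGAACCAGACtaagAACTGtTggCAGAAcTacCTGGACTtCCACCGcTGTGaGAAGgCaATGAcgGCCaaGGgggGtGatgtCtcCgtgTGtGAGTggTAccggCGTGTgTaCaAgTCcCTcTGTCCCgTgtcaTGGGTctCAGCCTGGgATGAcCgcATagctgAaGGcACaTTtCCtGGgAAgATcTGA
Of 257 aligned bases 166 (64.6%) were identical, and the longest run shared without a mismatch was 14 bases, far below the read length of 150 bases. Neither gene had another annotated transcript with at least 95% identity over 150 bases, so a read of full length from the coding part of either gene holds mismatches to the other.

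The promoters of the pair are shown because their levels moved by different amounts. They run from 250 bases before to 50 after the RefSeq start (GRCm38.p6), Cox6b2 at chr7:4753045-4753344 and Cox6b1 at chr7:30626065-30626364, both on the minus strand and printed in the direction of transcription. Capitals mark matches, on either strand, to the letters of 5 motifs, none of which contains another: the NRF1 consensus, CCGGAAG (ETS factors such as GABPA), AAGATGG (YY1), GGGCGG (SP1) and CCAAT.
Cox6b2: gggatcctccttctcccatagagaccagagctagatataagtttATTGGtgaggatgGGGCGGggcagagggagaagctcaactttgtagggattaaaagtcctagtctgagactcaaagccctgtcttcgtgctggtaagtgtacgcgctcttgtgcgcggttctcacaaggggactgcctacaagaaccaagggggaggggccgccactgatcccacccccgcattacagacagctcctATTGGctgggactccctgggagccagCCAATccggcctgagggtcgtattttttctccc
Cox6b1: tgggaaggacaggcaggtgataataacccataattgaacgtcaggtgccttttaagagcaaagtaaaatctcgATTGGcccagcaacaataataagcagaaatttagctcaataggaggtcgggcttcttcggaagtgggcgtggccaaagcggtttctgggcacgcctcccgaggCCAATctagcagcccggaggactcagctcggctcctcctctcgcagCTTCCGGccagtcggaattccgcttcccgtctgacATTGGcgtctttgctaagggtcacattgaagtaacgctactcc
The Cox6b2 window held 1 SP1 and 3 CCAAT matches and no match to the others. The Cox6b1 window held 1 ETS match and 3 CCAAT matches. NRF1 and GABPA are known regulators of nuclear respiratory genes. Among the 33 members with a promoter in the table, 8 (24.2%) held the NRF1 letters and 11 (33.3%) the ETS letters, beside 4.603% and 8.86% of all 32851 promoters and 10.9% and 19.3% of the tested genes that have one. YY1 letters stood in 4 members (12.1%), beside 6.34% of all promoters and 8.21% of those of tested genes. SP1 letters stood in 12 members (36.4%), beside 35.7% of all promoters and 68.1% of those of tested genes. CCAAT stood in 18 members (54.5%), beside 37.4% and 43.1%. A match is a description of these letters and says nothing of binding.

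Cox8a and Cox6a1, the widespread forms of subunits 8 and 6A, were the members of complex IV with the highest levels. Cox8a (chromosome 19, 7215153 to 7217616) stood at 694 and 689.7 TPM with DMSO and at 978 and 984 TPM with CX-5461. The libraries of each group lay close together and far from the other group, and the difference was 0.50 (SE 0.08, adjusted p = 0.00994), a 1.42-fold rise. Cox6a1 (chromosome 5, 115345642 to 115348981) stood at 736 and 738 TPM with DMSO and at 984 and 915 TPM with CX-5461, a difference of 0.36 (SE 0.08, adjusted p = 0.0328). Unlike most members, these 2 genes were nearly equal in the DMSO libraries (replicate 3 minus replicate 2, -0.01 and 0.00). Cox5b, a zinc-binding subunit (chromosome 1, 36691449 to 36693681), went from 144 and 123 TPM to 178 and 174 TPM, a difference of 0.40 (SE 0.10, adjusted p = 0.0455). All 3 lost the call when CX-5461 replicate 2 or CX-5461 replicate 3 was left out (adjusted p = 0.131 and 0.157 for Cox8a, 0.274 and 0.208 for Cox6a1, and 0.244 and 0.244 for Cox5b), fits in which only 2.15% and 1.62% of all genes were called higher. Without DMSO replicate 3, Cox8a passed (0.0197), and Cox6a1 (0.0515) and Cox5b (0.0667) did not. The Cox6a1 call also ended under median-of-ratios scaling (0.0609), under rescaling without the mitochondrially encoded and highest genes (0.0552) and with the length trend removed (0.109). The calls of Cox6a1, Cox5b and Atp5mpl ended without a filter on low values (0.0575, 0.0880 and 0.0603), and those of Cox6a1, Cox5b and Atp5mpl ended without limma's trend and robust options (0.0843, 0.102 and 0.0630).

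The other paralogs of complex IV differed widely in level. The muscle forms were at or near 0: besides Cox6a2 and Cox8b, the muscle form Cox7a1 stood at 0 and 1.78 TPM with DMSO and at 2.82 and 1.67 TPM with CX-5461, at most 15.5 reads, and the groups overlapped. Its widespread partner Cox7a2 stood at 176 and 93.7 TPM with DMSO and at 200.1 and 181 TPM with CX-5461. The difference of 0.56 did not pass (adjusted p = 0.262), and it was 0.11 without DMSO replicate 3 (0.463) and 1.01 without DMSO replicate 2 (0.0127). Cox7a2l, the supercomplex factor, was the member with the lowest difference: 213 and 164 TPM with DMSO and 170.4 and 155 TPM with CX-5461 (-0.20, adjusted p = 0.352). Its share in the sum with Cox7a2 was 54.7% and 63.7% with DMSO and 46.0% and 46.2% with CX-5461, so the groups lay apart in this ratio although they overlapped in the level of Cox7a2l. Cox7b, on the X chromosome, stood at 202 and 149 TPM and at 208 and 200.02 TPM (0.23, adjusted p = 0.322). Cox7b passed without DMSO replicate 2 (0.45, adjusted p = 0.0241), and its difference was 0.02 without DMSO replicate 3.

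The remaining subunits of complex IV, encoded by single genes, were Cox5a, Cox6c and Cox7c. Their differences were 0.36, 0.50 and 0.34, both CX-5461 libraries were above both DMSO libraries in each, and their adjusted p of 0.104, 0.107 and 0.0776 missed the threshold. Cox6c stood at 57.3 and 39.8 TPM with DMSO and at 68.0 and 67.6 TPM with CX-5461. DMSO replicate 3 had the lowest of the 4 values, as it did for 33 of the 37 tested members.

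Complex III had no gene that passed, and all 8 differences lay above 0, from 0.07 to 0.66. By the mean over the 4 libraries its highest members were Uqcr10, a small subunit (chromosome 11, 4701973 to 4704342), and Uqcrc1, a core protein (chromosome 9, 108936633 to 108949623). Uqcr10 stood at 209 and 154 TPM with DMSO and at 263 and 232 TPM with CX-5461 (0.46, SE 0.16, adjusted p = 0.107), and passed without DMSO replicate 2 (0.0253). Uqcrc1 stood at 199 and 175 TPM with DMSO and at 217 and 248 TPM with CX-5461 (0.32, SE 0.11, adjusted p = 0.0982). In both genes the groups did not overlap. Uqcrfs1, the Rieske iron-sulfur protein and the only catalytic member here, stood at 206 and 158 TPM and at 174 and 208 TPM, and the groups overlapped (0.07, adjusted p = 0.763). With DMSO the mean levels of Uqcrfs1, Uqcr10 and Uqcrc1 lay within their spread, at 182 ± 33.6, 182 ± 38.9 and 187 ± 17.2 TPM. Uqcrc2, the other core protein, differed by 0.13 (95% interval -0.10 to 0.36). The small subunits Uqcrb, Uqcrh, Uqcrq, Uqcr10 and Uqcr11 had a median difference of 0.44, and in each of them DMSO replicate 3 was the lowest of the libraries. Uqcr11 had the largest difference of this complex, with 127 and 78.2 TPM against 150.3 and 167 TPM (0.66, adjusted p = 0.111).

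In complex V the 5 genes of the F1 head had a median difference of 0.06 and 0 passed. The 5 small membrane subunits had a median of 0.37 and 1 rose, where 11.6% of all genes tested were higher. Against DMSO replicate 2 alone these medians were 0.02 and 0.24. Whether these sets differ was not tested. Atp5b, the catalytic beta subunit (chromosome 10, 128083273 to 128090391), had the highest level of all members by the mean over the 4 libraries, although Cox6a1 and Cox8a were above it in both CX-5461 libraries. It stood at 870.5 and 818 TPM with DMSO and at 863 and 903 TPM with CX-5461 (0.06, 95% interval -0.14 to 0.27, adjusted p = 0.621). Atp5a1, the alpha subunit, stood at 764 and 675 TPM and at 718 and 735 TPM (0.02, 95% interval -0.21 to 0.25, adjusted p = 0.918). In both genes the groups overlapped. The signs depend on scaling: under median-of-ratios scaling the difference was -0.00139 for Atp5b and -0.0499 for Atp5a1. Atp5c1, the gamma subunit of the rotor, differed by -0.02, and Atp5d, the delta subunit, by 0.21 with groups that did not overlap (adjusted p = 0.115). The Atp5d gene overlaps Cbarp on the opposite strand, so reads of the overlap cannot be told apart if they were counted without strand, and Cbarp rose (0.92, adjusted p = 0.00437). Atp5e, the epsilon subunit and the shortest member, stood at 82.0 and 27.7 TPM with DMSO and at 89.1 and 78.8 TPM with CX-5461. Its difference of 0.80 (SE 0.50, adjusted p = 0.326) came to 0.03 against DMSO replicate 2 alone.

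The c ring, which turns as protons pass, is encoded by Atp5g1, Atp5g2 and Atp5g3, whose products differ in the import sequence that is cut off and share the mature subunit. Atp5g3 stood at 267 and 128 TPM with DMSO and at 214 and 227 TPM with CX-5461, so that both CX-5461 libraries lay between the DMSO ones (0.25, SE 0.35, adjusted p = 0.649). Without DMSO replicate 3 the difference was -0.28 (0.0820), and without DMSO replicate 2 it was 0.78 (0.0130). Atp5g2 stood at 172 and 149.6 TPM and at 155 and 173 TPM (0.03, adjusted p = 0.873, and a difference of -0.04 under median-of-ratios scaling). Atp5g1 stood at 43.5 and 33.6 TPM and at 45.5 and 45.2 TPM (0.24, adjusted p = 0.266), and passed without DMSO replicate 2 (0.42, 0.0424). Summed over the 3 genes, TPM came to 482 and 311 with DMSO and 414 and 444 with CX-5461. Atp5g1 was the lowest of the 3 in every library, and Atp5g3 was the highest in every library but DMSO replicate 3, where Atp5g2 was. Their coding sequences were 70.7% to 76.7% identical, with no shared run over 21 bases. Atp5g2 has 2 annotated copies with at least 95% identity, one of them at up to 70.0 TPM, so its level is uncertain.

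The peripheral stalk, which holds the head still, was made by Atp5pb, Atp5h, Atp5j and Atp5o. Their differences ran from -0.00243 to 0.24 and none passed, with adjusted p from 0.177 to 0.985. Atp5pb had the difference closest to 0, at 139 and 143 TPM with DMSO and at 140.4 and 141 TPM with CX-5461. Annotated copies with at least 95% identity exist for Atp5pb, Atp5h and Atp5o. They stood at up to 39.2, 53.0 and 12.4 TPM, so the levels of these 3 genes are uncertain. Of the 5 small membrane subunits, Atp5mpl, a small proteolipid (chromosome 12, 111961375 to 111966977), rose. It stood at 51.2 and 41.7 TPM with DMSO and at 68.6 and 69.4 TPM with CX-5461, and the groups did not overlap (0.57, SE 0.12, adjusted p = 0.0256). The call ended without CX-5461 replicate 2 (0.149) and without CX-5461 replicate 3 (0.177) and held without either DMSO library (0.0149 and 0.0464). Atp5j2 (0.34, adjusted p = 0.0681), Atp5l (0.37, 0.104), Atp5k (0.53, 0.243) and Atp5md (0.10, 0.641) did not pass. Annotated copies also exist for Atp5l, Atp5k and Atp5md, so their levels are uncertain too. A copy of Atp5md was listed at up to 36.3 TPM, the same value as Atp5md itself in CX-5461 replicate 2. Whether that copy is a separate gene was not tested.

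**Figure D3:**
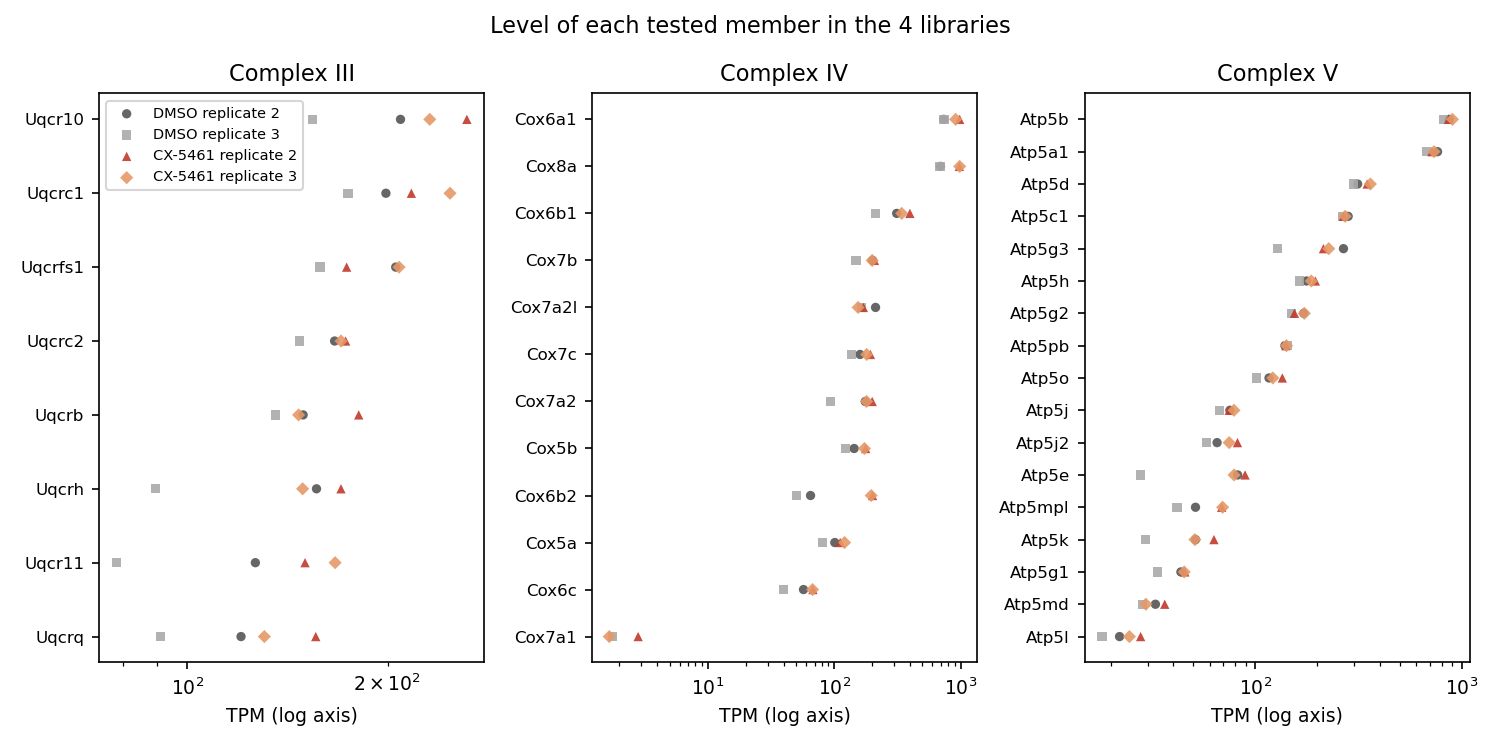
TPM of each tested gene on a log axis, with one point per library and one panel per complex, ordered by mean level. DMSO replicate 3 (grey squares) is the leftmost point in 33 of 37 rows, and Cox7a1 has no point for DMSO replicate 2, where it was at 0.

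Members with short coding sequences had the larger differences. Coding lengths, without the stop codon, ran from 156 to 1659 bases with a median of 324. The 17 members of up to 300 bases had a median difference of 0.50, the next 12, of up to 600 bases, 0.23, the next 4, of up to 1200 bases, 0.04 and the 4 longest 0.10. The medians of DMSO replicate 3 minus replicate 2 were -0.43, -0.21, -0.15 and -0.18 in the same order, with exceptions on both sides: Atp5g3, of 423 bases, was at -1.06 and Cox7a1, of 240 bases, at 1.47. Across the 37 members, which share the 4 libraries, the difference and log length had a Pearson r of -0.49 and a Spearman rho of -0.70, and against DMSO replicate 2 alone these were -0.29 and -0.45. Over all genes tested, the medians of CX-5461 minus DMSO in these classes were 0.19, 0.15, 0.10 and 0.04, and those of DMSO replicate 3 minus replicate 2 were -0.21, -0.15, -0.10 and -0.07. Short genes in general were thus lower in DMSO replicate 3 than in replicate 2. Without DMSO replicate 3, 3 members rose (Cox6b2, Cox8a and Atp5mpl) where 6.48% of all genes were higher, and without DMSO replicate 2 there were 19 where 14.0% were. With each library's trend over exon length removed, an alternative chosen after seeing the data, Cox6b2, Cox8a, Cox5b and Atp5mpl rose, where 11% of all genes were higher, and the median difference was 0.25 against 0.00098 over all genes.

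**Figure D4:**
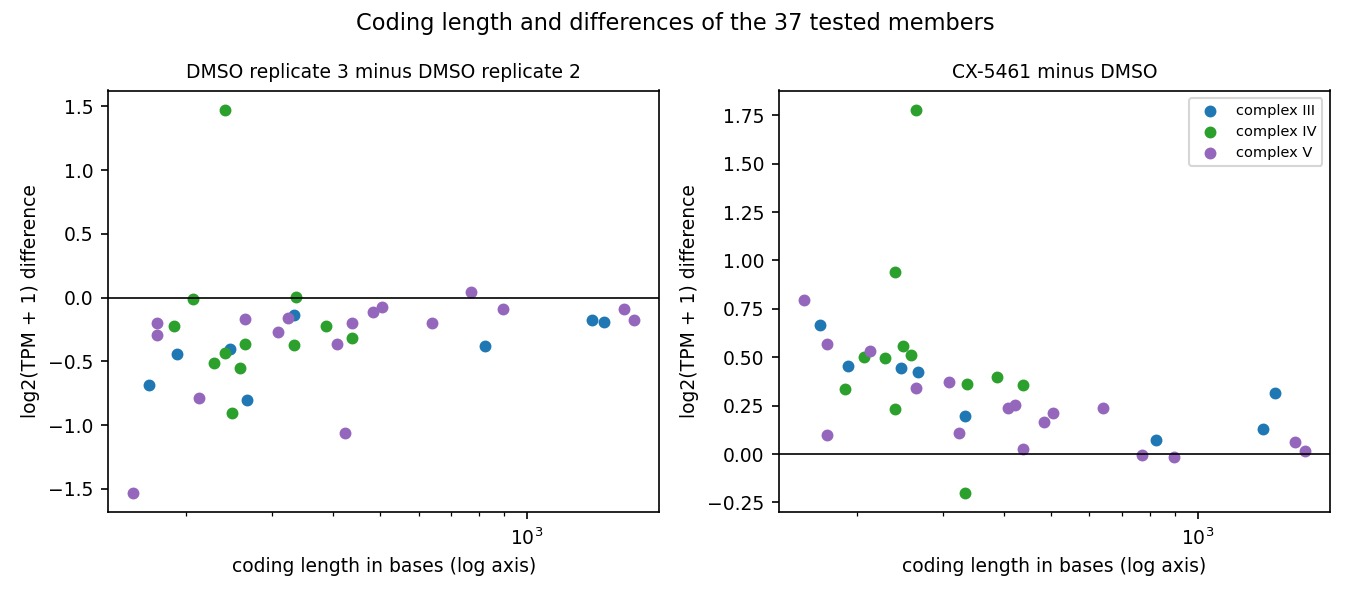
Coding length of the 37 tested genes (log axis, bases) against the log2(TPM + 1) difference between the DMSO libraries (left, replicate 3 minus replicate 2) and between the groups (right, CX-5461 minus DMSO). On the left Atp5e is lowest at -1.53, and short genes spread widely, with Cox7a1 at 1.47 and Cox8a at -0.01. On the right Cox6b2 is highest at 1.78.

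Summed by complex over the rows that match the naming rule, the nuclear genes of complex IV moved most. Their TPM came to 2862 and 2484 with DMSO and to 3694 and 3518 with CX-5461, a ratio of means of 1.35, and of 1.26 against DMSO replicate 2. Complex III summed to 1333 and 1029 TPM with DMSO and to 1485 and 1452 TPM with CX-5461, ratios of 1.24 and 1.10. Complex V summed to 3524 and 3045 TPM with DMSO and to 3522 and 3572 TPM with CX-5461, ratios of 1.08 and 1.01. For complex V, 1 of the CX-5461 libraries was thus just below DMSO replicate 2 and the other above it. The exact permutation test of such sums, 2 libraries against 2, cannot give a two-sided p below 0.33.

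**Figure D5:**
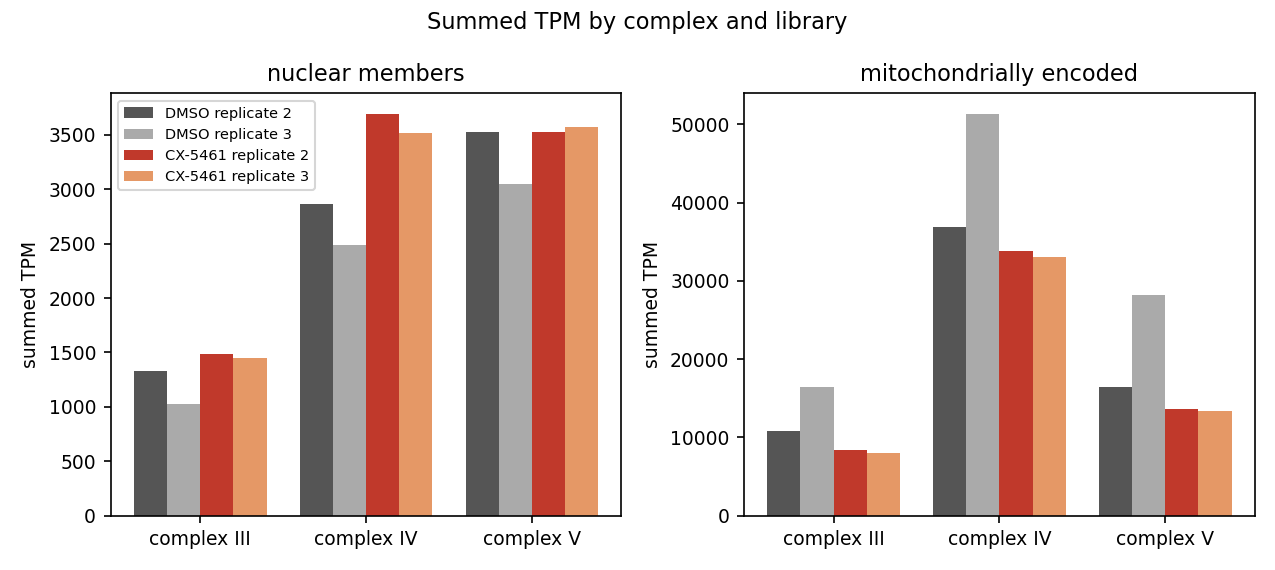
Summed TPM of the nuclear members (left) and of the mitochondrially encoded subunits (right) of each complex, one bar per library. On the left the CX-5461 bars of complex IV (3694 and 3518) stand above both DMSO bars, and on the right DMSO replicate 3 is the highest bar of each complex.

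The subunits of the same complexes that the mitochondrion encodes had lower values with CX-5461. Cytochrome b (CYTB) of complex III stood at 10822 and 16428 TPM with DMSO and at 8367 and 8023 TPM with CX-5461. Its difference of -0.70 (SE 0.21) did not pass (adjusted p = 0.0692). All 6 of these genes had differences below 0, from -0.75 (ATP8, adjusted p = 0.123) to -0.36. In 6 of 6 both CX-5461 libraries were below both DMSO libraries, as they were for 26.3% of all genes tested. The 6 genes share the same 4 libraries, so they are not separate observations. With limma 0 passed, and 2 had an unadjusted p under 0.05, a limit whose share over all genes is not given here. Without DMSO replicate 3 the difference was -0.401 for CYTB and -0.339 for ATP8, and without DMSO replicate 2 it was -1.004 and -1.168. It was -0.733 for CYTB and -0.792 for ATP8 without CX-5461 replicate 2, and -0.672 and -0.714 without CX-5461 replicate 3. The lower values were not limited to these 2 genes. Against DMSO replicate 2 alone, the summed TPM of the mitochondrially encoded subunits had ratios of 0.757, 0.905 and 0.820 in complexes III, IV and V. Ratios of mitochondrially encoded to nuclear TPM used only the nuclear rows that match the naming rule. Cox4i1, Ndufa4 and Cyc1 were thus left out and Cox7a2l was included. The ratio was 12.9 and 20.7 with DMSO and 9.15 and 9.39 with CX-5461 in complex IV. It was 8.12 and 16.0 against 5.64 and 5.53 in complex III, and 4.66 and 9.24 against 3.87 and 3.73 in complex V. In each complex both CX-5461 libraries lay below both DMSO libraries, with DMSO replicate 3 far above the rest.

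Other genes of oxidative phosphorylation were described from 8 lists, among them that of the mitochondrially encoded subunits. Of 111 genes tested in them, 23 rose and 0 fell, where 11.6% of all genes were higher and 8.21% lower, and their median difference was 0.28 against 0.07 over all genes. Without DMSO replicate 3, 12 rose and 3 fell, where 6.48% of all genes were higher and 5.77% lower, and the median was 0.14 against 0.02. Among the subunits outside the naming rule and cytochrome c, 1 of 6 rose: Cox4i1, the widespread form of subunit 4, went from 553 and 377 TPM to 784 and 762 TPM (0.76, adjusted p = 0.0461). Cyc1, the cytochrome c1 of complex III (0.27, 0.249), Ndufa4, a subunit of complex IV (0.36, 0.0621), Atpif1, an inhibitor of ATP synthase (0.27, 0.157), Cycs, cytochrome c itself (-0.19, 0.224), and Cox4i2 (-0.04, 0.949) did not pass. As the partner form of Cox4i1, Cox4i2 held at most 1.02% of their sum in every library. Of the 37 subunits of complex I, the entry of the chain for NADH, 12 rose and 0 fell (11.6% and 8.21% over all genes), with a median of 0.40, and 5 rose without DMSO replicate 3 (6.48% over all genes), with a median of 0.19. Examples were the accessory subunits Ndufa7 (0.76, adjusted p = 0.0134), Ndufab1 (0.64, 0.0169), Ndufa13 (0.73, 0.0210) and Ndufb7 (0.42, 0.0287). Of 8 genes of complex II 2 rose, the anchor subunit Sdhc (0.52, 0.0231) and the assembly factor Sdhaf1 (0.95, 0.00430).

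Assembly factors of complexes III, IV and V were measured as lists of 6, 26 and 6 genes. Where 11.6% of all genes tested were higher and 8.21% lower, 2, 3 and 2 of these factors rose and 0 fell. For complex III these were Ttc19 (0.49, adjusted p = 0.0256) and Lyrm7, the chaperone of the Rieske protein (0.99, 0.0341). For complex IV they were Higd2a (0.50, 0.0113), Coa4 (0.75, 0.0212) and Coa5 (0.50, 0.0240), and for complex V Tmem70 (0.70, 0.0124) and Dmac2l (0.66, 0.0359). Of 16 regulators of mitochondrial genes 1 rose and 0 fell, beside the same shares over all genes. It was Esrra, the estrogen-related receptor alpha (0.82, adjusted p = 0.0180), which went from 40.6 and 30.1 TPM to 63.1 and 61.7 TPM. None of the genes named from these lists kept its call without CX-5461 replicate 3. Without CX-5461 replicate 2, Sdhaf1 (0.0490) kept it and the others did not. Calls ended without DMSO replicate 3 for Ttc19 (0.0796), Lyrm7 (0.117), Coa4 (0.0551), Coa5 (0.0785), Dmac2l (0.118), Ndufa13 (0.0670), Ndufab1 (0.0651) and Ndufb7 (0.0731), and without DMSO replicate 2 for Lyrm7 (0.0567), Coa4 (0.0620) and Dmac2l (0.0562).

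Markers of cells that use other isoforms were set beside these results. Of 4 male germ cell markers, 3 were under 1 TPM in all libraries. The sum of the 4 ran from 1.78 to 1.99 TPM with DMSO and from 1.28 to 2.20 TPM with CX-5461. These markers (Ddx4, Dazl, Sycp3 and Prm1) were each at or under 1.88 TPM in every library, and Cox6b2 stood at 50.3 TPM or more. Whether germ cells contributed to the level of Cox6b2 was not tested. Of 10 striated muscle markers, 7 were under 1 TPM in all libraries and Myog was at 0, and the sum of 53.0 and 60.8 TPM with DMSO and 24.2 and 17.0 TPM with CX-5461 was almost wholly Acta1, which fell (-1.45, adjusted p = 0.00586). Brown adipocyte markers summed to at most 2.52 TPM, with Cidea at 0. Of 8 fibroblast markers 5 fell and 0 rose, where 8.21% of all genes tested were lower and 11.6% higher. Lum was among the 5 (-1.03, adjusted p = 0.00131, a call that held whichever library was left out). The call of Pdgfra ended without CX-5461 replicate 3, and those of Dcn and Thy1 without either CX-5461 library. That of Thy1 also ended without DMSO replicate 3. With 1 library left out, the differences ran from -0.90 to -0.80 for Pdgfra, -0.66 to -0.51 for Dcn and -0.74 to -0.50 for Thy1. The fibroblast sum was 11935 and 9696 TPM with DMSO and 8589 and 8328 TPM with CX-5461. Keratinocyte markers summed to 30.7 and 32.4 TPM with DMSO and 17.9 and 28.7 TPM with CX-5461, and 0 of 3 tested passed. Krt14 stood at 26.4 and 26.9 TPM with DMSO and at 10.8 and 18.5 TPM with CX-5461 (-0.87, adjusted p = 0.0641). Its difference ran from -1.22 to -0.51 with 1 library left out. The other 2 tested lay above 0. Leukocyte markers summed to 32.2 and 57.2 TPM and to 48.6 and 62.9 TPM, with Cd3e at 0, and the macrophage gene Adgre1 rose (0.90, adjusted p = 0.0137), a call that ended without CX-5461 replicate 2 (0.105) or CX-5461 replicate 3 (0.0803). Endothelial ones summed to 50.9 and 50.4 TPM and to 57.9 and 57.0 TPM, where Kdr rose (1.78, 0.000729), a call that held whichever library was left out. Tek fell (-0.39, 0.0299), a call that ended without DMSO replicate 2 (0.0567), DMSO replicate 3 (0.0670), CX-5461 replicate 2 (0.159) or CX-5461 replicate 3 (0.221), while Pecam1 and Cdh5 were under 1 TPM in all libraries. The part of these shifts in the members' differences was not tested.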

How the data were processed

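Polyadenylated RNA of 4 libraries, 2 per group, was measured. The authors deposited TPM values, which sum to 1000000 per library. Per the labels' protocols, paired reads of 150 bases went through an online platform, BMKCloud, for cleaning. The submitters' processing notes name mm10. The aligner is not given in the sources used here, nor are the counter and length definition. TPM are shares, so a few abundant genes can shift all others. Groups and numbers came from the titles, and 0 columns were unused.

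Genes averaging 1 TPM or more were fitted as log2(TPM + 1) by limma 3.58.1 under R 4.3.3 (trend and robust options, no covariate, 2 residual and 3.75 prior degrees of freedom, Benjamini-Hochberg adjustment). The procedure was tested on simulated data. The members and lists were chosen with earlier results of these data known. Values by library are given for members that passed, the 2 highest of each complex and paralogous subunits, and of other lists for up to 4 passing genes. Others are named after their values were seen. The labels do not pair the numbers, and same-numbered libraries deviated together at r = 0.0307.

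Positions and lengths came from GENCODE M21, matched by symbol or, for 455 symbols, by another RefSeq name. Read numbers were recovered as TPM times exon length times a constant, with 70.8% to 71.4% of values under 2000 reads within 0.01 of a whole number. Of 37 tested members, 18 share at least 150 bases at 95% identity with another annotated gene (blastn 2.17.0) and are uncertain. Of the 5 that rose, Cox5b is one. Other settings were pseudocounts of 0.1 and 5, filters, scalings, plain limma, a replicate block, thresholds and each library left out.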

Additional observations from a re-analysis of the deposited data

How the results depend on the processing

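With 2 libraries per group, the number of calls moved with most settings. The number of members that rose was 5, 4 of them in complex IV and 1 in complex V. It was 2 without a filter on low values (4.93% of all genes higher), 2 without limma's trend and robust options (7.71%) and 2 at a threshold of 0.01 (3.75%), in each case 2 in complex IV and 0 in complex V. At a threshold of 0.1 it was 8 (17.9%), with 1 in complex III and 2 in complex V. With 1 library left out it ran from 1 to 19, from 0 to 4 in complex III, from 1 to 10 in complex IV and from 0 to 5 in complex V. Among these fits the share of all genes called higher was also largest without DMSO replicate 2. It was smallest when a CX-5461 library was left out, so the range is not specific to the members. With a replicate block the number of members that rose was 8 (10.9%), of which 2 in complex III and 2 in complex V. Of the 5 calls, 4 were among them. Cox6b1 (0.0274), Uqcr10 (0.0341), Uqcrq and Atp5k then passed, as did CYTB (0.0460) and the marker Krt14 (0.0274). Cox6a1 (0.0537) and the marker Tek (0.0533) did not. Same-numbered libraries share only a number. No member fell under any of these settings.

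Of the other oxidative phosphorylation genes 23 rose and 0 fell. The count higher, of 111, was 7 without a filter (4.93% of all genes), 10 without trend and robust options (7.71%), 1 and 37 at thresholds of 0.01 and 0.1 (3.75% and 17.9%), and 0 to 44 with 1 library left out. The count lower was 1 without trend and robust options, 1 with a replicate block, 1 with the length trend removed, 2 at a threshold of 0.1 and 0 to 6 with 1 library left out. The members' median ran from 0.14 to 0.43 with 1 library left out, from 0.17 to 0.53 in complex III, from 0.24 to 0.51 in complex IV and from 0.0302 to 0.25 in complex V, and that of complex III was 0.27 under quantile normalization. The complex V median of 0.21 was 0.103 under quantile normalization, 0.142 under rescaling and 0.104 with the length trend removed.

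The sign turned for 4 named members that did not pass. Atp5a1 was at -0.0499 under median-of-ratios scaling, -0.0646 under quantile normalization, -0.0564 under rescaling without the mitochondrially encoded and highest genes and -0.0614 with the length trend removed, and ran from -0.0737 to 0.106 with 1 library left out. Atp5b was at -0.00139 under median-of-ratios scaling and -0.00787 under rescaling. Atp5g2 was at -0.0374, -0.0793 and -0.0439 under the scalings in the same order and -0.0851 with the length trend removed, and ran from -0.0703 to 0.126 with 1 library left out. Atp5g3 ran from -0.279 to 0.782. Depth limits Cox7a1, with at most 15.5 reads. The causes were not tested.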

Other observations

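The neighbours of Cox6b2 were read because it was the member with the largest difference, a choice made after its values were seen. Within 40 kb on chromosome 7, the cytokine gene Il11 rose from 2.55 and 2.24 TPM to 6.02 and 7.53 TPM (log2 difference 1.19, limma adjusted p = 0.0101), and Tmem190 rose from 1.73 and 3.28 TPM to 7.21 and 5.58 TPM (1.11, 0.0382). Kmt5c, a histone H4 lysine methyltransferase whose gene is the nearest measured one, stood at 14.3 and 13.7 TPM with DMSO and at 11.2 and 11.2 TPM with CX-5461 (-0.30, 0.120). Tmem238 (0.49, 0.0743), the ribosomal protein gene Rpl28 (-0.24, 0.130), Brsk1 (0.05, 0.837) and Tmem150b (-0.28, 0.403) did not pass.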
